A study of Mus musculus with 6 samples.

Results

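The regions described here carry an annotation to the 3' ends of genes. Some of them lie nearer to the start than to the end of the gene they were assigned to, as given below. They are the CUT&Tag regions that the authors annotated as 3' UTR, the transcribed stretch after the stop codon, or as downstream, the stretch of up to 3 kb past a gene's end. Members were chosen by that annotation alone. The 4 deposited tables held 6876 regions of the 3' UTR class and 5606 of the downstream class among 456310 regions, where a region present in more than 1 table counts in each.

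The libraries came from primary mouse cardiac fibroblasts, labelled as heart tissue, with no strain, age or genotype in the labels. In CUT&Tag an antibody brings a transposase to the protein it recognises, and the DNA cut there is sequenced. There were 2 sets of 3 libraries, the T set and the S set, with 1 library for each treatment. The first library of a set was labelled NC. The second was TGF-b, a cytokine that drives fibroblasts towards contractile, matrix-secreting myofibroblasts. The third was TGF-b with an siRNA, which the labels write as TGF-b+SiTAZ (T set) and TGF-b+SiSRF (S set). In the study's text these experiments use Piezo2 siRNA with a scrambled control, and the series' design note speaks instead of Tet3 knockout by a Cre virus followed by TGF-β, so the target is called only siRNA here. The study profiled TAZ and SRF. Since no label gives the antibody, it is inferred that T stands for TAZ and S for SRF. With 1 library per group no difference could be tested, and the 95% intervals given below cover counting error only.

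The 3' end of a gene holds the polyadenylation signal at which the transcript is cut. RNA polymerase runs on past that point before it leaves the DNA, so transcription reaches into the downstream stretch. TAZ is a coactivator that has no DNA-binding domain and reaches chromatin largely through TEAD factors, often at enhancers. SRF binds CArG boxes in the promoters of cytoskeletal and immediate early genes. Both are known for relaying mechanical signals in fibroblasts. A 3' end may also lie beside the start or within the body of a neighbouring gene.

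Members made up a small share of each table. The table of TGF-b over NC held 2732 3' UTR and 2156 downstream regions of 170890 in the T set, and 679 and 590 of 52723 in the S set. The table of siRNA over TGF-b held 2810 and 2252 of 180118 in the T set, and 655 and 608 of 52579 in the S set. The 3' UTR class was thus 1.6% and 1.56% of the T tables and 1.29% and 1.25% of the S tables. The downstream class was 1.26% and 1.25% of the T tables and 1.12% and 1.16% of the S tables. Promoter regions were between 7.09% and 9.79% of a table. Most genes had a single member: in the T set's table of TGF-b over NC, 351 of 2314 genes had more than 1 3' UTR region and 271 of 1856 had more than 1 downstream region.

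Members were also counted by the library they were called in. In the T set, 2073 3' UTR regions were called for NC, 774 for TGF-b and 2106 for siRNA, which was 1.63%, 1.46% and 1.56% of all regions called in those libraries. Downstream regions numbered 1581, 669 and 1668 in the same order, or 1.24%, 1.26% and 1.24%. The S set had 382, 303 and 358 3' UTR regions (1.36%, 1.17% and 1.25% of 27986, 25891 and 28738 called), and 299, 300 and 317 downstream regions (1.07%, 1.16% and 1.1%). The TGF-b library of the T set therefore had fewer members of both classes than its 2 companions, as it did over all regions, with 53121 called against 127036 in NC and 134584 in siRNA.

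The gene that the authors assigned was often not the gene whose end a member overlapped, since the assignment follows the nearest transcription start. In the T set's table of TGF-b over NC, the centre of 822 of 2732 3' UTR regions (30.1%) lay inside the assigned transcript. Another 1254 (45.9%) lay past its end and 656 (24.0%) lay before its start. Of the 2156 downstream regions, 1661 (77.0%) lay past the end of the assigned transcript and 495 (23.0%) before its start. The other 3 tables gave similar shares. The 4 tables together list part of the transcripts of the annotation. Against that list, 1427 3' UTR regions (52.2%) of this table overlapped a transcript of the assigned gene, and 806 (29.5%) overlapped one of another gene and none of the assigned one. Of the downstream regions, 1406 (65.2%) lay within 3 kb past the end of the assigned gene, and 475 (22.0%) only past that of another gene. A gene name below is the authors' assignment, and the other gene is added where one was found. The median distance to the assigned start was 7512 bp for 3' UTR and 7734 bp for downstream members of this table, against 251 bp for promoter regions.

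Density was low and alike in both classes. The deposited value is a normalized read density, reads plus 1 per kb of a 2 kb window, after the authors' scaling, so an empty window stands near 0.5 and not at 0. In the T set's table of TGF-b over NC, the 3' UTR median was 4.73 in NC (quartiles 2.83 and 7.69) and 3.2 in TGF-b (1.6 and 5.68). Downstream regions had 4.76 (2.8 and 7.8) and 3.27 (1.6 and 5.67). Introns of the same table had 4.73 and 3.17, whereas promoters had 7.63 and 7.62. In the S set the 3' UTR medians were 5.49 in NC and 4.09 in TGF-b, the downstream medians 4.89 and 4.48, and the promoter medians 6.11 and 7.38. Members thus had the density of introns and less than that of promoters in both sets.

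**Figure D1:**
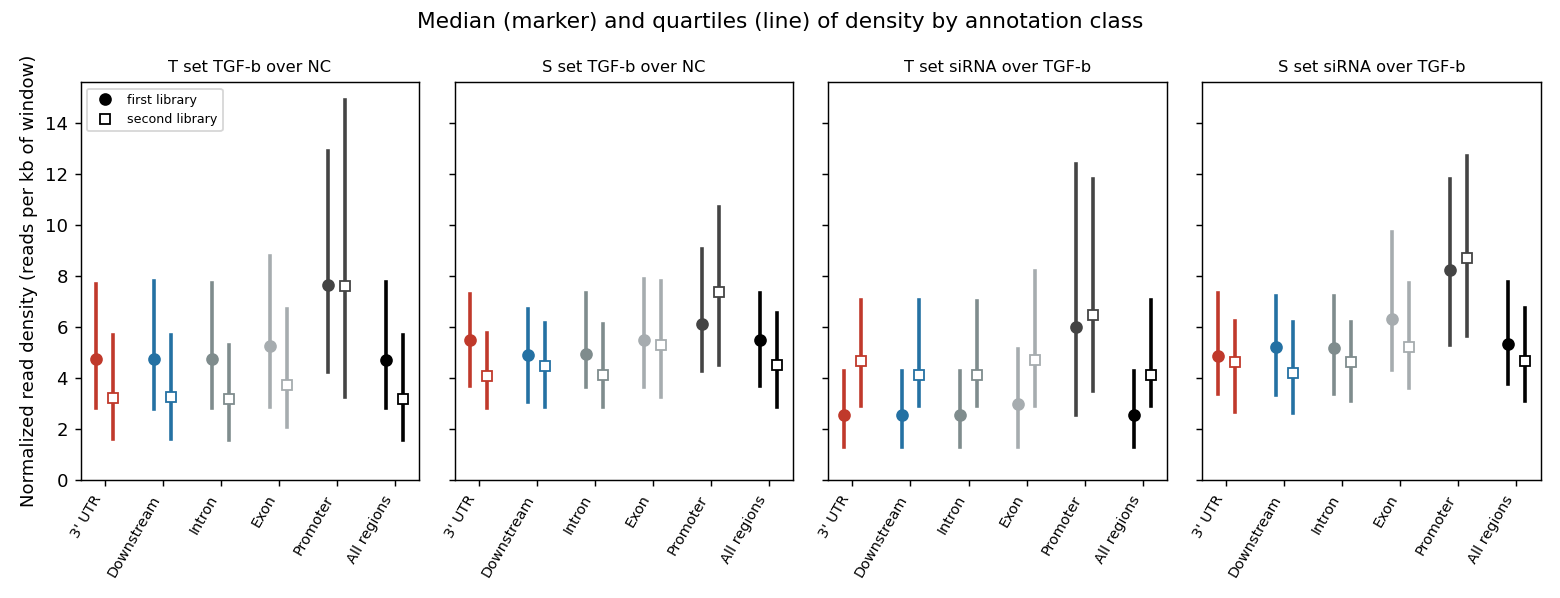
Normalized read density (reads per kb of window) by annotation class in each table, with the first library of the comparison as filled circles and the second as open squares; markers are medians and lines run from the lower to the upper quartile over regions. The 3' UTR and downstream medians lie beside the intron medians and under the promoter medians in every table, for example 4.73 and 4.76 against 7.63 in NC of the T set.

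Behind these densities stood few reads. Whole reads were recovered for every member of the 4 tables. The median 3' UTR region of the T set's table of TGF-b over NC held 9 reads in NC and 5 in TGF-b, and 46.8% of these regions had 3 reads or fewer in at least 1 of the 2 libraries. At least 20 reads in 1 library were found in 491 3' UTR regions (18.0%) and 399 downstream regions (18.5%), beside 19.3% of all regions, 17.9% of introns and 49.5% of promoters. In the S set the median 3' UTR region held 8 and 9 reads, and 74 of 679 (10.9%) reached 20 reads, beside 13.7% of all regions. The 3' UTR regions had a median width of 92 bp (T set) and 140 bp (S set), narrower than the 2 kb window. The window overlapped the window of another region for 30.5% of 3' UTR and 32.1% of downstream members of the T set, and for 9.28% and 8.14% of the S set. Members with overlapping windows can share reads. Reads over a whole library were not used here.

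In the T set, the comparison of TGF-b with NC asks where the profiled factor sat after the cytokine. Of 2732 3' UTR regions, 450 (16.5%) were at least 2-fold higher and 1153 (42.2%) at least 2-fold lower in TGF-b, against 17.3% and 42.1% of all 170890 regions. Of 2156 downstream regions, 382 (17.7%) were higher and 888 (41.2%) lower. The median log2 ratio was -0.69 for 3' UTR and -0.65 for downstream members, beside -0.65 for all regions, -0.74 for introns, -0.01 for promoters and 0.3 for 5' UTR regions. Both classes lay at the level of the table. The lean to lower values depends on the scaling: centred on the median of all regions, 26.0% and 26.7% were higher and 26.0% and 26.5% lower. The interval of the log2 ratio was wholly above 0 in 381 3' UTR (13.9%) and 317 downstream regions (14.7%), where 14.8% of all regions had such an interval. It was wholly below 0 in 846 and 668 (31.0% of each class), where the table had 31.1%.

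The T set's comparison of siRNA with TGF-b gave the opposite lean. Here 49.6% of 3' UTR and 49.7% of downstream regions were at least 2-fold higher with siRNA, beside 49.7% of the table, and 16.1% and 15.9% were at least 2-fold lower, beside 16.2%. The median log2 ratio was 0.97 in both classes and 0.97 over all regions. Introns had 1.03 and promoters 0.11. The interval lay above 0 in 1100 3' UTR (39.1%) and 881 downstream regions (39.1%), beside 38.9% of the table, and below 0 in 315 (11.2%) and 247 (11.0%), beside 11.4%. The 2 comparisons share the TGF-b library, whose low values enter the first as the numerator and the second as the denominator.

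In the S set, TGF-b over NC had smaller medians and a gap between the classes. The median log2 ratio was -0.33 for 3' UTR and -0.1 for downstream regions, beside -0.2 for all regions, -0.29 for introns and 0.27 for promoters. The quartiles of the 2 classes overlapped widely, from -1.21 to 0.56 and from -1.04 to 0.79. Of 679 3' UTR regions, 15.0% (95% Wilson interval 12.5% to 17.9%) were at least 2-fold higher, and of 590 downstream regions 20.3% (17.3% to 23.8%), with 17.4% in the table. At least 2-fold lower were 30.2% (26.9% to 33.7%) and 26.4% (23.0% to 30.1%), with 26.7% in the table. The intervals of the classes overlap in both directions. Neither median keeps its sign when the authors' scaling line is taken off: they then become 0.26 and 0.49. The shares turn over as well, with 32.1% and 36.1% higher and 18.4% and 14.9% lower. Among members with at least 10 reads in 1 library the medians were 0.06 and 0.2, beside 0.06 for all regions with that many reads.

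With siRNA in the S set, both classes again lay near the table. The median log2 ratio of siRNA over TGF-b was -0.17 for 3' UTR and -0.23 for downstream regions, beside -0.21 for all regions, and the 3' UTR median turned to 0.05 when ratios were centred on all regions. At least 2-fold higher were 19.1% (16.3% to 22.3%) and 18.8% (15.8% to 22.0%), above the 15.1% of the table. Introns of that table had 16.8% and intergenic regions 14.1%. Among members with at least 10 reads in 1 library the shares were 14.6% and 14.8%, beside 12.7% of all regions and 14.0% of introns with that many reads. At least 2-fold lower were 28.1% and 29.3%, where the table had 27.8%. The interval lay above 0 in 79 3' UTR regions (12.1%) and 74 downstream regions (12.2%), where the table had 10.2%.

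**Figure D2:**
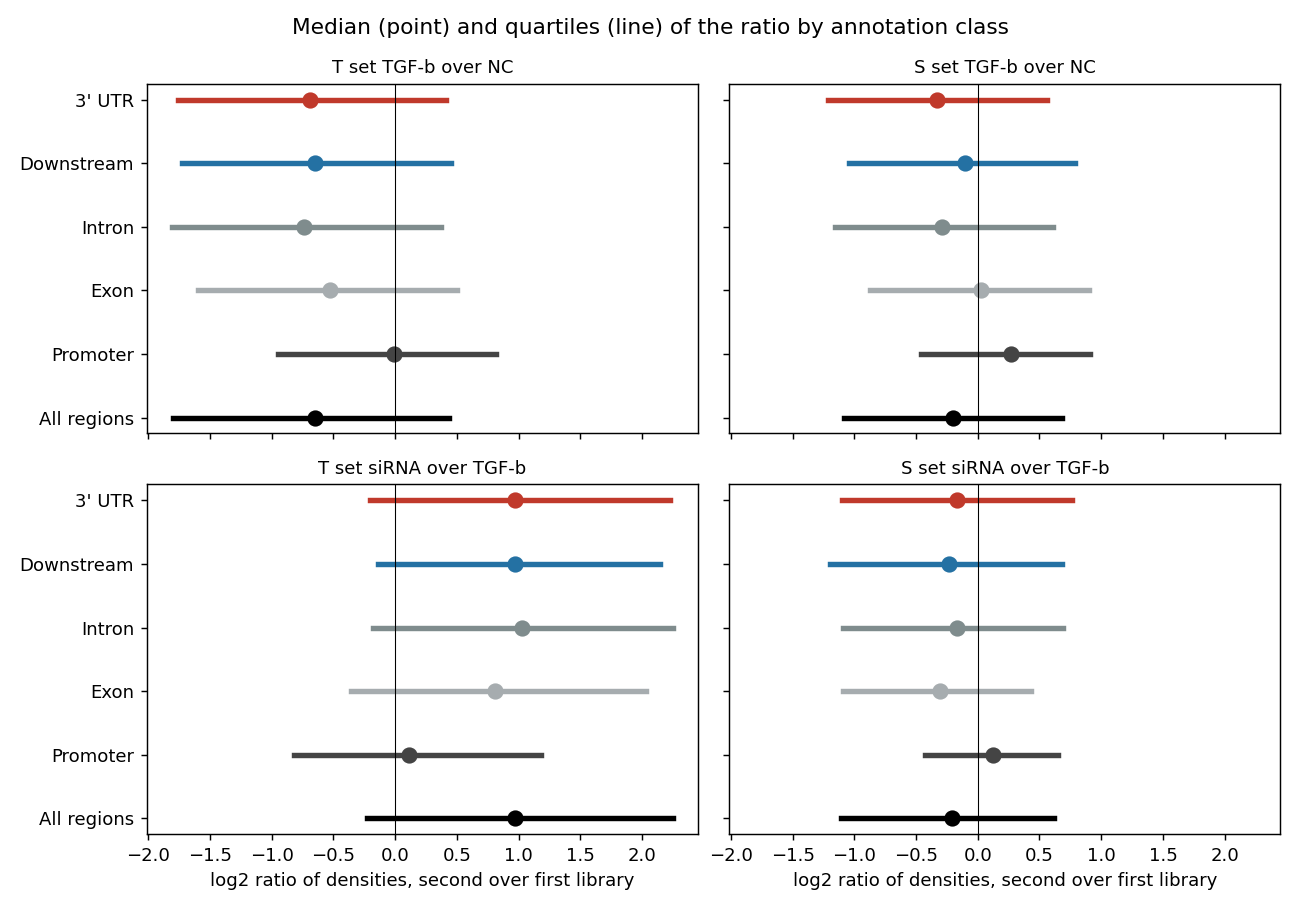
Log2 ratio of densities, second over first library, by annotation class in each table; points are medians and lines join the lower and upper quartiles over regions. The 3' UTR and downstream points sit beside those of introns and of all regions in both T panels (-0.69 and -0.65 against -0.65, then 0.97 against 0.97), and promoters sit nearer 0.

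Which library a member was called in went with its ratio, as the selection of regions requires. Among 3' UTR members of the T set's table of TGF-b over NC, 1958 were called in NC alone, with a median log2 ratio of -1.23, 659 in TGF-b alone, with 1.36, and 115 in both, with -0.1. The downstream class had 1487, 575 and 94, with medians of -1.24, 1.35 and -0.12. Members called in both were thus 4.21% and 4.36% of their classes, beside 5.42% of the table and 21.3% of promoters. In the S set only 6 3' UTR and 9 downstream members were called in both NC and TGF-b (0.884% and 1.53%, beside 2.19%). In the siRNA tables, 70 and 85 members of the T set were called in both libraries (2.49% and 3.77%, beside 4.21%), and 6 and 9 of the S set (0.916% and 1.48%, beside 3.9%). The few members called in both libraries held more reads, a median of 24 in NC and 21 in TGF-b for the 3' UTR class of the T set.

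**Figure D3:**
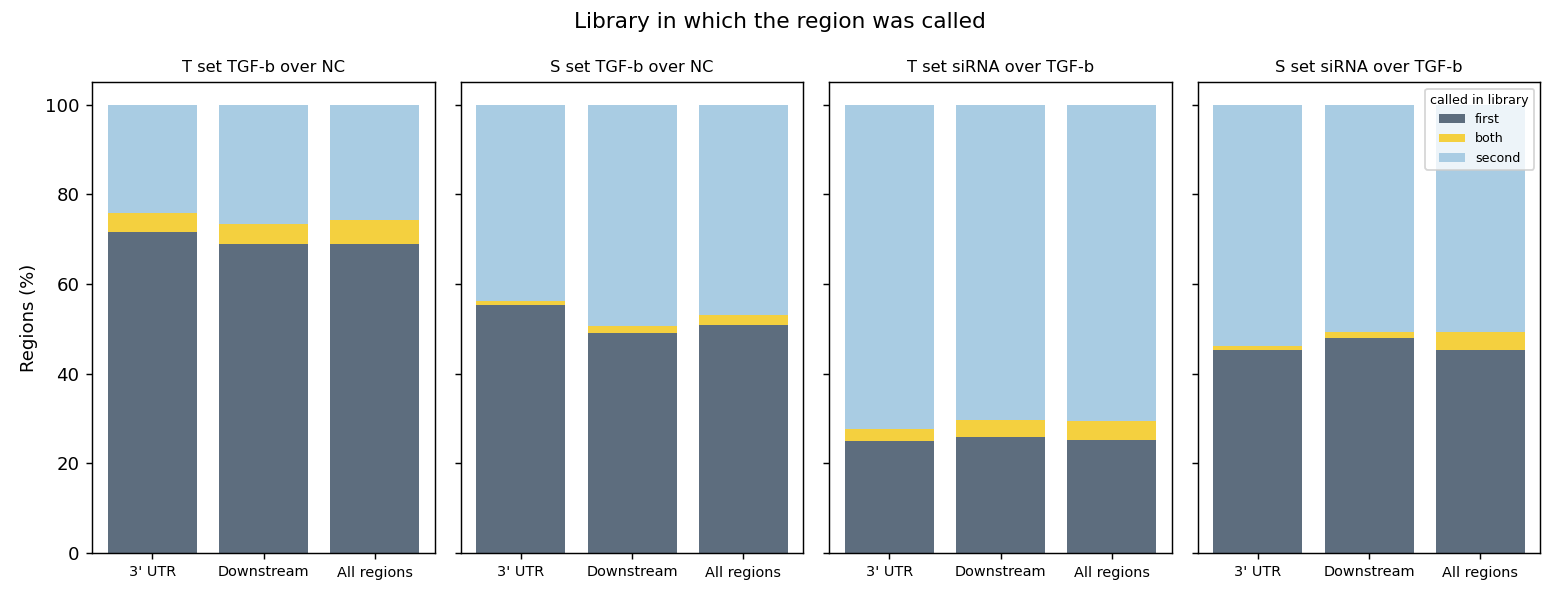
Share of regions (%) called only in the first library, in both, or only in the second, for the 3' UTR class, the downstream class and all regions of each table. Regions called in both are a thin band in every bar, 4.21% and 4.36% of the 2 classes in the first panel, and the bars of members resemble the bar of all regions.

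The ratio was also set against position. The downstream class is stated in steps of up to 1 kb, 1 to 2 kb and 2 to 3 kb past the gene's end. Across these steps the median log2 ratio of TGF-b over NC in the T set was -0.58, -0.7 and -0.69, over 799, 706 and 651 regions. In the siRNA comparison of the T set it was 1.03, 0.95 and 0.97. The S set ran from -0.24 through -0.17 to 0.12 with TGF-b, over 197, 216 and 177 regions, and from -0.06 through -0.3 to -0.38 with siRNA. Close to an assigned start, the 173 3' UTR regions of the T set within 1 kb of one had a median of -0.69 with TGF-b, and the 368 over 30 kb away had -0.53. In the S set the 3' UTR medians with TGF-b were -0.15 up to 1 kb (37 regions), -0.58 from 1 to 3 kb (107), -0.22 from 3 to 10 kb (257), -0.16 from 10 to 30 kb (183) and -0.74 past 30 kb (95). They followed no single direction with distance.

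For single regions, members found in both tables of a set give a value in all 3 libraries. There were 860 3' UTR and 747 downstream members of this kind in the T set, and 313 and 309 in the S set. Being in both tables favours a region called in TGF-b, and the median reads show it: 6, 10 and 4 in NC, TGF-b and siRNA for 3' UTR members of the T set, and 5, 12 and 5 in the S set. The members named next were picked from this group by density or by an extreme ratio, so their ratios describe the ends of the range. Ratios and intervals stand on the authors' scaling. Centring on the median of all regions moves every T set log2 ratio up by 0.65 for TGF-b over NC and down by 0.97 for siRNA over TGF-b. Where this takes a printed interval onto or off 0, or moves a fold against the floor, the centred value is added.

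The densest 3' UTR members of the T set had many reads in all 3 libraries. The region assigned to Gapdh, which encodes a glycolytic enzyme, lies at chr6:125138004-125138665 (GRCm39), past the end of the assigned transcript and within a transcript of Iffo1, 411 bp from its 3' end. Its reads were 57 in the NC library, 53 in TGF-b and 100 with siRNA. The log2 ratio was -0.14 (interval -0.68 to 0.39) for TGF-b, turning to 0.51 when centred on all regions, and 1.39 (0.93 to 1.88) for siRNA over TGF-b, falling to 0.42 when centred, where the interval includes 0 (-0.04 to 0.91). The region of Pkd1, the gene of polycystin-1, lies at chr17:24769449-24769731 inside the assigned transcript, 666 bp from its start. It lies 45892 bp from the 3' end of a listed transcript of the gene, and had 70, 113 and 33 reads. It was 1.52-fold higher with TGF-b (log2 0.6, 0.18 to 1.04) and lower with siRNA (log2 -1.26, -1.85 to -0.73). At chr15:83041084-83041840, within a transcript of Cyb5r3, the region assigned to Poldip3 held 71, 68 and 25 reads, with a log2 ratio of -0.93 (-1.62 to -0.31) for siRNA. Gapdh and Pkd1 thus differ in which library is highest, siRNA in the first and TGF-b in the second.

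Among 3' UTR members of the T set with extreme ratios, a low or empty TGF-b library was one form. The region assigned to 3110045C21Rik (chr1:169805246-169805411) lies 45 bp from the 3' end of a transcript of Ddr2, a collagen-receptor kinase gene. Its NC library held 14 reads, TGF-b 0 and siRNA 9. Against the floor of 3 reads, the TGF-b library was at least 3.4-fold lower than NC (2.16-fold when centred), and siRNA at least 3.42-fold higher than TGF-b (1.74-fold when centred). Such folds, here and below, leave out the counting error of the other library. The interval of this TGF-b ratio ended at -1.66 (log2). Or13p4, an olfactory receptor gene (chr4:118546020-118546117), had 13, 0 and 17 reads, and siRNA was at least 6.17-fold higher than TGF-b (3.15-fold when centred). Within a transcript of Gnal, a G protein subunit gene, the region assigned to Gm50169 had 39, 2 and 14 reads (log2 -3.63, -6.08 to -2.27, for TGF-b). The region of Fzd5, a Wnt receptor gene, had 9, 2 and 20 reads, with a log2 ratio of 3.26 (1.83 to 5.72) for siRNA. In these regions the TGF-b library was the lowest of the 3.

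The other form was a high TGF-b library. At Gnao1, another G protein subunit gene (chr8:94685648-94685820), 0 reads in NC stood against 24 in TGF-b and 14 with siRNA, so TGF-b was at least 6.78-fold higher than NC (10.7-fold when centred). The siRNA ratio there was -0.27 (-1.24 to 0.63), and -1.24 with an interval below 0 (-2.21 to -0.34) when centred. Nmrk2, a nicotinamide riboside kinase gene (chr10:81034712-81034861), had 0, 19 and 1 reads. TGF-b was at least 5.46-fold higher than NC there (8.58-fold when centred), and the log2 ratio of siRNA over TGF-b was -2.87 (-6.35 to -1.24). The region assigned to Vps13d, a lipid transfer protein gene, lies within a transcript of Tnfrsf1b, a TNF receptor gene (chr4:144941069-144941207), and had 13, 34 and 0 reads. Cdk20, a cyclin-dependent kinase gene (chr13:64587020-64587123), had 10, 26 and 0. With siRNA these 2 regions were at least 6.36-fold and 4.91-fold lower than with TGF-b (12.5-fold and 9.62-fold when centred). Vps13d, Cdk20 and Nmrk2 were highest in TGF-b and at or near 0 with siRNA.

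Downstream members of the T set showed the same forms. The densest was assigned to Snap47, a SNARE protein gene, past the end of Zfp867 (chr11:59349837-59350162), with 89, 84 and 95 reads. Its log2 ratio was -0.16 (-0.59 to 0.27) for TGF-b, turning to 0.49 (0.06 to 0.92) when centred, and 0.67 (0.25 to 1.09) for siRNA, turning to -0.3 when centred. Trim56, a ubiquitin ligase gene (chr5:137131754-137132235), had 105, 76 and 36 reads, with -0.54 (-0.97 to -0.12) for TGF-b, turning to 0.11 when centred, and -0.57 (-1.16 to -0.03) for siRNA. The stretch past Neat1, the long noncoding RNA of paraspeckles (chr19:5873377-5873488), had 33, 75 and 68 reads and was 2.19-fold higher with TGF-b (log2 1.13, 0.57 to 1.74). Its siRNA ratio was 0.35 (-0.12 to 0.82), turning to -0.62 (-1.09 to -0.15) when centred. Snap47 had nearly equal reads in the 3 libraries, and Trim56 was lowest with siRNA.

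Phlda2, an imprinted gene of placental growth, had the downstream member of the T set with the lowest ratio of TGF-b over NC (chr7:143054683-143054946). NC held 30 reads, TGF-b 0 and siRNA 9, so TGF-b was at least 7.19-fold lower than NC (4.58-fold when centred). Past the end of Msrb3, a methionine sulfoxide reductase gene, the region assigned to Gm48202 had 13, 0 and 11 reads. The region assigned to 1700124M09Rik, 4986 bp before its start, had 12, 1 and 26 (log2 4.21, 2.61 to 7.69, for siRNA). In the other direction, Ism2, a secreted isthmin gene (chr12:87325150-87325274), had 0, 24 and 4 reads, and TGF-b was at least 6.78-fold higher than NC (10.7-fold when centred). Gm26868, past the end of Lingo1, a neuronal receptor gene, had 0, 16 and 16. The region assigned to Prpf18, a splicing factor gene, lies past its end, 30838 bp from its start, and had 9, 25 and 0 reads. The region of Gm56808 had 3, 25 and 0 reads. In both, siRNA was at least 4.73-fold lower than TGF-b (9.27-fold when centred). Ism2 was lower with siRNA (log2 -1.86, -3.59 to -0.66), whereas Gm26868 had equal reads with TGF-b and siRNA.

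**Figure D4:**
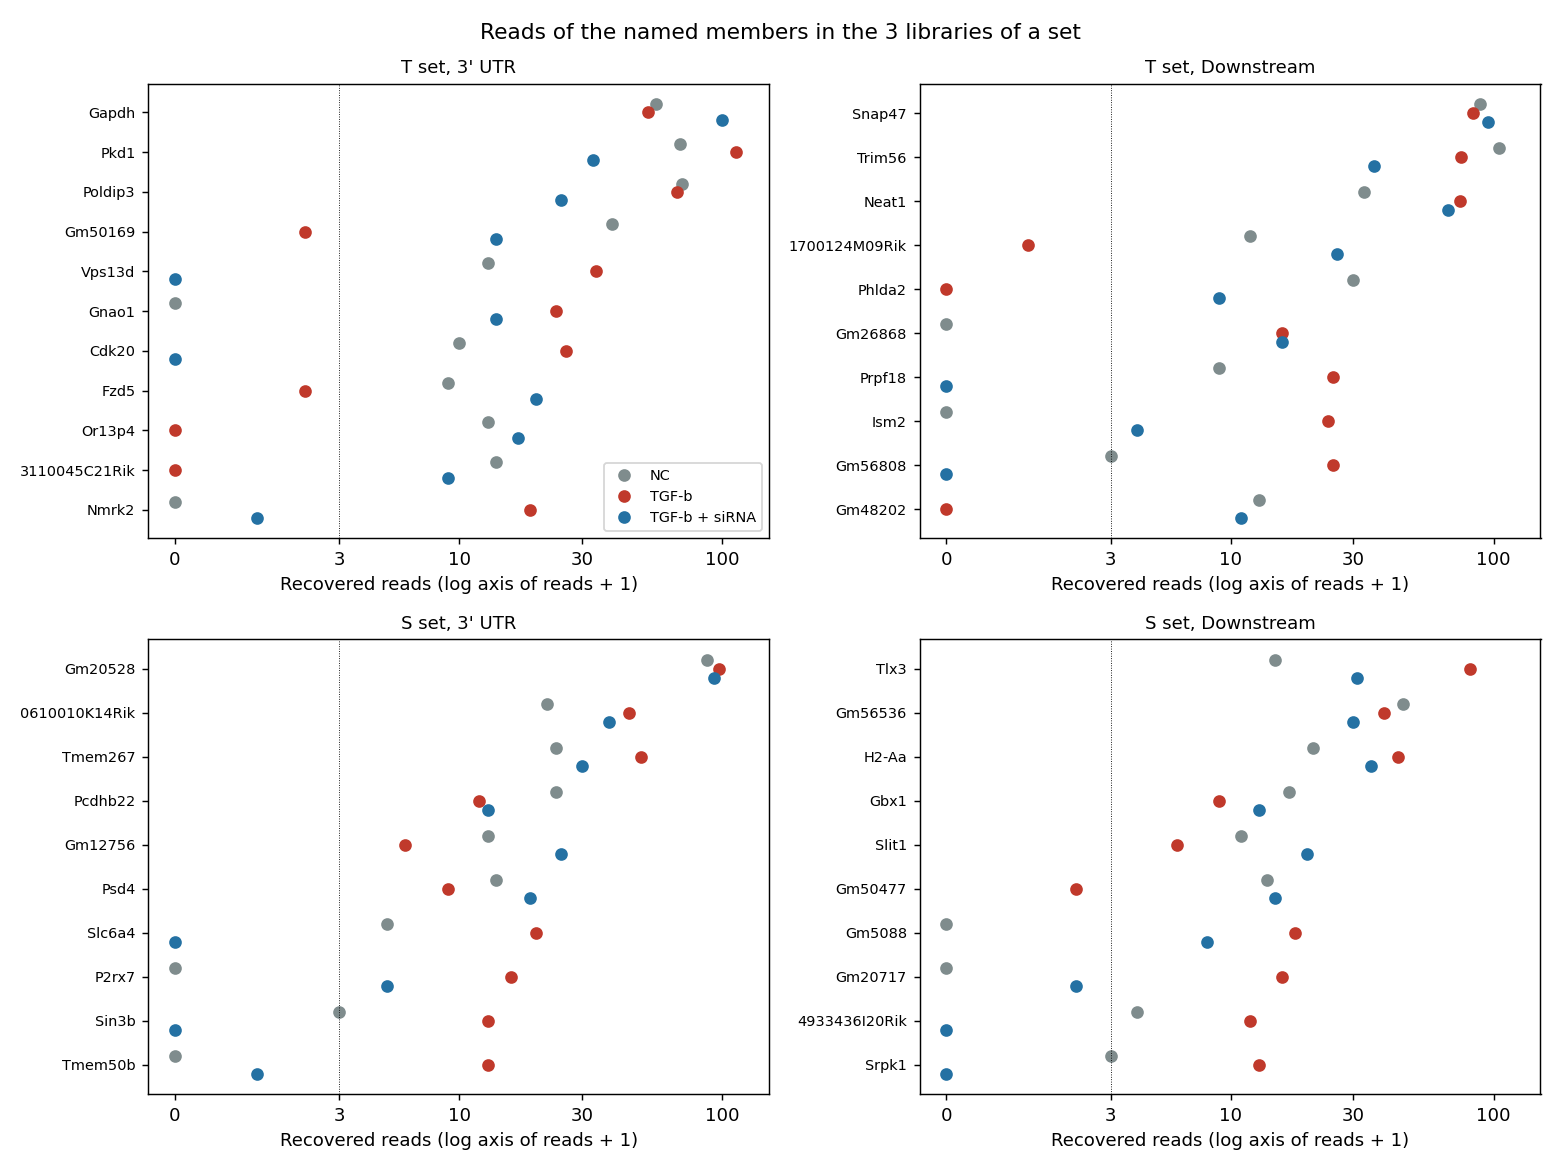
Recovered reads of the named 3' UTR and downstream members in the NC (grey), TGF-b (red) and siRNA (blue) libraries of the T set (top) and S set (bottom), on a log axis of reads plus 1, 1 point per library; the dotted line marks 3 reads. Of the dense members, Snap47 (89, 84 and 95) and Gm20528 (88, 97 and 93) hold their points together, while others such as Pkd1 (70, 113 and 33) and Tlx3 (15, 82 and 31) do not. Phlda2 has 0 reads in TGF-b and Gnao1 has 0 in NC.

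The 3' UTR members of the S set spread less. The region of Gm20528, a predicted gene (chr1:88145914-88146044), lies inside the transcript, 297 bp from its start. It lies 6288 bp from the 3' end of a listed transcript of the gene. It had 88, 97 and 93 reads in NC, TGF-b and siRNA. Its log2 ratios were -0.35 (-0.77 to 0.06), or 0.14 without the authors' line, and -0.1 (-0.5 to 0.31), or 0.12 when centred. The region of 0610010K14Rik lies inside the transcript, 17 bp from its start and 2383 bp from the 3' end of a listed transcript. It had 22, 45 and 38 reads, and that of Tmem267, a transmembrane protein gene, 24, 50 and 30. Their intervals for TGF-b over NC include 0 (-0.23 to 1.23 and -0.17 to 1.23). When centred, the interval of Tmem267 leaves 0 (0.7, 0.03 to 1.43), and without the authors' line that of 0610010K14Rik does too (1.0, 0.3 to 1.76). The siRNA ratio of Tmem267 was -0.7 (-1.37 to -0.07), or -0.49 with an interval that includes 0 (-1.16 to 0.14) when centred. The 3 densest 3' UTR members of the S set thus had more reads in TGF-b than in NC before scaling. The authors' line took 0.58 (log2) off a typical region of that table, and after it the ratio of Gm20528 lay below 0.

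Members of the S set with extreme ratios had fewer reads. P2rx7, the gene of an ATP-gated channel (chr5:122821931-122822098, inside the transcript), had 0, 16 and 5 reads, and Tmem50b (chr16:91372598-91372814) had 0, 13 and 1. TGF-b was at least 2.83-fold and 2.33-fold higher than NC there (4.25-fold and 3.5-fold without the authors' line). The region assigned to Slc6a4, the serotonin transporter gene (chr11:76877357-76877502), lies 12000 bp before its start and had 5, 20 and 0 reads. The region assigned to Sin3b, a corepressor gene, within a transcript of Nwd1, had 3, 13 and 0. With siRNA they were at least 4.87-fold and 3.22-fold lower than with TGF-b. The opposite lean was seen in the region assigned to Gm12756 within a transcript of Chst8, a sulfotransferase gene, with 13, 6 and 25 reads (log2 1.98, 0.9 to 3.39, for siRNA). Psd4, an Arf exchange factor gene, had 14, 9 and 19 reads (1.08, 0.04 to 2.28), or 1.0 with an interval that includes 0 (-0.04 to 2.2) without the authors' line. Pcdhb22, a protocadherin gene, had 24, 12 and 13 reads, with -1.5 (-2.54 to -0.57) for TGF-b and an interval including 0 for siRNA (-0.9 to 1.31).

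Past the end of Tlx3, a homeobox gene (chr11:33147865-33148178), lay the densest downstream member of the S set, with 15, 82 and 31 reads. It was 3.61-fold higher with TGF-b (log2 1.85, 1.14 to 2.71) and lower with siRNA (log2 -1.37, -1.99 to -0.81). Gm56536 had 46, 39 and 30 reads, and H2-Aa, an MHC class II chain gene, 21, 44 and 35. Their siRNA intervals include 0 (-1.03 to 0.33 and -0.95 to 0.32). Fewer reads in TGF-b than in NC were found at Gm50477, with 14, 2 and 15, at the region assigned to the homeobox gene Gbx1 past the end of Asb10, with 17, 9 and 13, and at Slit1, an axon guidance gene, with 11, 6 and 20. The interval of Gbx1 (-1.41, -2.62 to -0.35) includes 0 without the authors' line (-0.85, -2.06 to 0.21), and that of Slit1 (-1.36, -2.84 to -0.07) includes 0 without the line (-0.78, -2.26 to 0.51) and when centred (-1.16, -2.64 to 0.13). Gm5088 had 0, 18 and 8 reads, and the region assigned to Gm20717, 14195 bp before its start, had 0, 16 and 2. TGF-b was at least 3.17-fold and 2.83-fold higher than NC there (4.75-fold and 4.25-fold without the authors' line). Srpk1, a splicing kinase gene, had 3, 13 and 0 reads, and the region assigned to 4933436I20Rik past the end of Pid1 had 4, 12 and 0. Only Tlx3 among the 3 densest had intervals on opposite sides of 0 in the 2 comparisons.

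Few members were assigned to genes of fibrosis or of the 2 factors, too few to read against the tables, where 17.3% (T set) and 17.4% (S set) of all regions had a TGF-b density of 2-fold or more over NC, and 42.1% and 26.7% the reverse. Of 24 matrix and myofibroblast genes, 2 had members in the T set's table of TGF-b over NC, with 2 regions and a median log2 ratio of 0.33 beside -0.65 for the table, and none had one in the S set. Of 30 SRF target genes, 5 had 9 regions in the T set (3 at least 2-fold higher, 3 lower) and 1 had 1 region in the S set. Of 25 YAP and TAZ target genes, 5 had 6 regions in the T set (3 higher, 2 lower) and 2 had 2 in the S set. Of 25 genes of the TGF-b pathway, 1 had a region in each set, and of 25 immediate early genes 4 had 6 regions in the T set (3 higher, 1 lower) and none in the S set. No fibroblast marker gene of 12 had a member in either table of TGF-b over NC. An endothelial marker gene of 10 and 1 macrophage marker gene of 10 had a region in the T set, and 1 cardiomyocyte marker gene of 12 and 1 macrophage marker gene in the S set. The profiles do not measure transcripts, so these counts do not check the cell type.

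In the siRNA tables the lists were as thin, and 49.7% of all regions were at least 2-fold higher (T set) and 15.1% (S set), with 16.2% and 27.8% lower. The T set had members at 4 matrix genes (4 regions, 2 at least 2-fold higher and 1 lower, median 1.1 beside 0.97 for the table), 6 SRF target genes (8 regions, 1 higher and 1 lower), 5 YAP and TAZ target genes (7 regions, 1 higher and 2 lower) and 4 TGF-b pathway genes (5 regions, 4 higher). It had 6 immediate early genes with 7 regions, 3 higher and 1 lower, and 1 fibroblast, 1 cardiomyocyte, 4 endothelial and 2 macrophage marker genes. The S set had 2 SRF target genes, both regions at least 2-fold higher, and 1 YAP and TAZ target gene, lower. It had 1 gene each of the TGF-b pathway, endothelial and macrophage lists.

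Of the matrix genes, 1 had a member of at least 20 reads, in the T set. It was Comp, a matrix protein gene, whose region lies within a transcript of Crtc1 (chr8:70836091-70836242) and held 31, 38 and 5 reads. Its siRNA ratio was -2.24 (-3.76 to -1.16), and its TGF-b ratio was 0.29 (-0.38 to 0.97), or 0.94 with an interval above 0 (0.27 to 1.62) when centred.

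Cytoskeletal and immediate early genes also had members of at least 20 reads in the T set. Flna, the gene of the actin crosslinker filamin A, had 2 such 3' UTR regions. The first, at chrX:73280452-73280567, held 30 reads in NC and 4 in TGF-b (log2 -2.53, -4.25 to -1.37), and the second, at chrX:73281735-73281847, held 21 and 1 (-3.3, -6.79 to -1.69). Vcl, the gene of vinculin in focal adhesions (chr14:21082472-21082570), held 20, 27 and 24 reads. Its TGF-b ratio was 0.45 (-0.35 to 1.29), or 1.1 with an interval above 0 (0.3 to 1.94) when centred, and its siRNA ratio 0.31 (-0.48 to 1.09), turning to -0.66 (-1.45 to 0.12). The other 2 Flna 3' UTR regions of that table held few reads and leaned the other way, with 1 read in NC and 8 in TGF-b (2.37, 0.57 to 5.82) at chrX:73267358-73267465, and 0 and 5 at chrX:73279253-73279350. The members of Flna thus split 2 and 2, but they are not all separate. The 2 kb windows of the 2 lower regions overlap. The window of the first of these also overlaps that of chrX:73279253-73279350.

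Egr1, a zinc finger gene of the early serum response that stands on both the SRF and the immediate early list, had a 3' UTR region with 17 reads in NC and 54 in TGF-b (log2 1.62, 0.9 to 2.46). Past the end of Btg2, an antiproliferative early gene (chr1:134002468-134002644), 1 read in NC stood against 26 in TGF-b and 32 with siRNA. The log2 ratio was 3.9 (2.31 to 7.39) for TGF-b and 0.76 (0.04 to 1.51) for siRNA, the latter turning to -0.21 when centred. Ier5, another early response gene (chr1:154969320-154969562), held 33, 57 and 6 reads downstream, with 0.75 (0.16 to 1.38) for TGF-b and -2.58 (-3.96 to -1.6) for siRNA. A 3' UTR region of Ier5 (chr1:154973782-154973852) leaned the other way from its downstream one, with 13 reads in NC and 2 in TGF-b (-2.07, -4.53 to -0.56), or -1.41 with an interval that includes 0 (-3.87 to 0.1) when centred.

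Of the YAP and TAZ targets, Ccn1, which encodes a matricellular protein, had the only member with at least 20 reads, a downstream region at chr3:145350373-145350446. Reads were 27 in TGF-b against 38 with siRNA (log2 0.95, 0.27 to 1.67), turning to -0.02 when centred. In the TGF-b pathway, the downstream region of Ltbp4, which encodes a latent TGF-b binding protein (chr7:27004322-27004391), held 29 reads in NC and 10 in TGF-b (-1.38, -2.49 to -0.46), and its interval includes 0 when centred (-0.73, -1.84 to 0.19). The one assigned to Bmpr1a, a BMP receptor gene, past the end of 9230112D13Rik, held 29 in TGF-b and 37 with siRNA (0.82, 0.13 to 1.52, turning to -0.15 when centred). In the S set no list gene had a member with 20 reads.

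Members of the T and S sets seldom coincided. By 1 bp of overlap within the same class, 52 3' UTR regions were shared between the tables of TGF-b over NC, 1.9% of the T set's and 7.66% of the S set's. In the downstream class 73 of the T set and 72 of the S set were shared (3.39% and 12.2%). Over all regions the shares were 3.98% and 12.7%, over introns 2.41% and 9.2%, and over promoters 13.2% and 45.1%. In the siRNA tables, the 3' UTR shares were 2.49% and 10.7% and the downstream shares 3.51% and 12.7%, where all regions had 4.69% and 15.9%, introns 2.66% and 10.7%, and promoters 19.7% and 48.8%. Both classes lay under the promoter shares in all 4 tables, and the downstream shares lay above those of introns, as a description of these tables.

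Across all 4 tables, 15 3' UTR and 25 downstream members were present. With at least 10 reads in all 6 libraries there was 1 3' UTR member, assigned to Ntmt1, an N-terminal methyltransferase gene (chr2:30713452-30713723 in the T set). Reads in NC, TGF-b and siRNA were 10, 40 and 22 for the T set, then 11, 15 and 10 for the S set. There were 4 downstream members of this kind. Gm56536 held 51, 25 and 45 reads, then 46, 39 and 30. H2-Aa held 31, 25 and 34, then 21, 44 and 35. Dlx2, a homeobox gene, held 79, 29 and 25, then 18, 29 and 18, and 4930469B13Rik held 26, 15 and 58, then 18, 24 and 42. The log2 ratio of TGF-b over NC, first in the T set and then in the S set, was 1.95 (1.07 to 3.03) and -0.15 (-1.21 to 0.98) for Ntmt1, the latter turning to 0.05 when centred and 0.42 without the line. For Gm56536 it was -1.0 (-1.71 to -0.35) and -0.75 (-1.37 to -0.15), and both intervals include 0 when centred (-0.35 and -0.56). H2-Aa had -0.28 (-1.04 to 0.46), turning to 0.37 when centred, and 0.5 (-0.21 to 1.27), which without the authors' line is 1.03 with an interval above 0 (0.32 to 1.8). Dlx2 had -1.44 (-2.08 to -0.86) and 0.11 (-0.69 to 0.98). At 4930469B13Rik the ratios were -0.7 (-1.64 to 0.16) and -0.15 (-1.0 to 0.74), the latter turning to 0.04 when centred and 0.4 without the line.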

How the data were processed

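The 6 CUT&Tag libraries were analysed from 4 deposited tables with 2 libraries of 1 set in each. The study's methods name Bowtie2 and GRCm39 for mapping, followed by peak calling; the submitters' processing notes list BWA 0.7.12 and mm10. The coordinates fit GRCm39, which is used here. The authors deposited a normalized read density, a signal of reads plus 1 per kb after removal of a line fitted by them on mean log2 density. Their log2 fold, M, A and p-value columns were not used.

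Members were taken by annotation in every table, and log2 ratios computed from the 2 densities with Python 3.11.15, numpy 2.4.6 and pandas 2.3.3. Undoing the line gave whole reads (within 0.1) in 99.96% to 99.99% of regions, a step tested on simulated data. Intervals are Wilson intervals at 95% of the share of reads in the second library, with the line subtracted, and cover counting error only. The line took between -0.45 and 0.58 (log2) off a typical region, and the median of all regions afterwards was -0.65, -0.2, 0.97 and -0.21. A library at 0 reads was set to 3 reads for a fold written as "at least". The reads of the other library were taken as counted, so such a fold is no bound on counting error.

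Members, gene lists and the naming rule were chosen with earlier results of these data known. Named are, per set and class, the 3 densest members in both tables, the 2 highest and 2 lowest ratios of each comparison with at least 10 reads in 1 library, and list genes with at least 20 reads. The 5 members with at least 10 reads in all 6 libraries were chosen after their values were seen. Alternatives were centring, no line, at least 10 reads, 1 region per gene, over 3 kb from a start, called in both libraries, 4-fold, and 50% overlap. No test was made, as each group held 1 library. Member sequences and motifs were not analysed here, and 1 gene is not reported here.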

Additional observations from a re-analysis of the deposited data

Results flagged for a closer look

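The siRNA comparison leaned to opposite sides in the 2 sets. The median log2 ratio of siRNA over TGF-b in 3' UTR regions was 0.97 (T set) and -0.17 (S set). In downstream regions it was 0.97 and -0.23. With 1 library per group the difference was not tested, and the tables of the 2 sets were normalized separately. The medians over all regions, 0.97 and -0.21, moved the same way.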

How the results depend on the processing

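Values are given in 1 order throughout: TGF-b over NC in the T set (3' UTR, downstream), the same in the S set, then siRNA over TGF-b for the T set and for the S set. Taking 1 region per gene, or regions over 3 kb from the assigned start, left every median and share of the 2 classes within its counting interval. Centring on the median of all regions gave median log2 ratios of -0.04, 0.0, -0.13, 0.1, 0.0, 0.0, 0.05 and -0.02, shares at least 2-fold higher of 26.0%, 26.7%, 19.6%, 24.7%, 29.4%, 28.1%, 24.1% and 23.0%, and shares lower of 26.0%, 26.5%, 25.5%, 21.7%, 28.1%, 27.3%, 23.2% and 25.0%. With the line taken off, medians were -0.81, -0.77, 0.26, 0.49, 0.51, 0.51, -0.25 and -0.31, so both S set medians of TGF-b over NC turned above 0. The shares higher were then 15.7%, 16.9%, 32.1%, 36.1%, 41.1%, 41.3%, 18.5% and 18.6%, and the shares lower 46.9%, 46.2%, 18.4%, 14.9%, 21.1%, 20.7%, 31.8% and 33.2%. With at least 10 reads in 1 library the medians were -0.88, -0.88, 0.06, 0.2, 1.04, 1.05, -0.44 and -0.51, the shares higher 15.6%, 14.3%, 18.7%, 25.5%, 51.2%, 50.7%, 14.6% and 14.8%, and the shares lower 45.8%, 45.6%, 26.1%, 18.3%, 18.1%, 17.3%, 32.9% and 33.8%. Among members called in both libraries the medians were -0.1, -0.12, -0.09, -0.15, 0.31, 0.14, -0.02 and -0.13, the shares higher 9.57%, 10.6%, 0.0%, 0.0%, 21.4%, 18.8%, 0.0% and 0.0%, and the shares lower 11.3%, 12.8%, 0.0%, 0.0%, 8.57%, 8.24%, 0.0% and 0.0%, where the S set had 6 or 9 such members. At 4-fold the shares higher were 9.3%, 10.2%, 3.09%, 5.93%, 29.3%, 27.9%, 5.19% and 5.26%, and the shares lower 20.7%, 20.6%, 10.0%, 7.97%, 9.5%, 9.55%, 9.16% and 10.2%. At 50% of the shorter region, the overlap of the sets for TGF-b over NC was 1.39% and 5.6% of 3' UTR members of the T and S sets, and 2.6% and 9.32% of downstream members. Of the 98 ratios of regions picked by the naming rule, 73 had an interval off 0. Other regions named in the text are not among the 98. Of those, the Ier5 3' UTR region (-1.41) and the T set region of Gm56536 (-0.35) came to include 0 with TGF-b when centred. Shifting the interval with the ratio, 13 of these came to include 0 when centred and 11 with the line taken off. Centring turned 6 to the other side, all in the T set: Trim56 with TGF-b to 0.11, and with siRNA Snap47 to -0.3, Ccn1 to -0.02, Bmpr1a to -0.15 and the 2 Btg2 regions to -0.21 and -0.16. The other 7 were Gapdh (0.42), Tmem267 (-0.49) and P2rx7 (-1.19) with siRNA, and Ltbp4 (-0.73), Psd4 (-0.96), Gm56536 (-0.56) and Slit1 (-1.16) with TGF-b. With the line taken off, intervals came to include 0 for Snap47 (0.18), Ccn1 (0.48), Bmpr1a (0.34), both Btg2 regions (0.29 and 0.33) and Psd4 (1.0) with siRNA, and for Gm12756 (-1.0), Psd4 (-0.58), Gm56536 (-0.23), Gbx1 (-0.85) and Slit1 (-0.78) with TGF-b. Of the 25 intervals that included 0, 9 left it when centred: with TGF-b those of Poldip3 (0.53), Snap47 (0.49), Comp (0.94), Vcl (1.1), Tmem267 (0.7), Sin3b (1.42) and Srpk1 (1.42), and with siRNA those of Gnao1 (-1.24) and Neat1 (-0.62). With the line taken off 8 left it: with TGF-b those of 0610010K14Rik (1.0), Tmem267 (1.03), Sin3b (1.81), H2-Aa (1.03), Srpk1 (1.81), 4933436I20Rik (1.38) and Fzd5 (-1.74), and with siRNA that of Gm5088 (-1.08). Apart from the alternatives' own construction, the cause of these shifts was not tested.

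No paired analysis was possible because each group held 1 library. Depth limits the single regions: between 28.4% and 56.7% of 3' UTR members in a table had 3 reads or fewer in 1 of the 2 libraries, and intervals excluded 0 in fewer regions than passed 2-fold (846 against 1153 lower 3' UTR members with TGF-b, T set). No value separates a treatment from the spread between libraries. The motif counts that were planned were not run.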
